A study of Mus musculus with 18 samples.

Results

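The genes described here are 9 genes of the interferon response, Ifit1, Ifit3, Usp18, Iigp1, Ifitm3, Irf7, Isg15, Oasl2 and Bst2, measured in mouse cerebellum. They were named as a list, and every probe set that carried exactly 1 of these symbols was taken, which gave 9 probe sets of 8 genes among 34945 probe sets of 18193 genes with exactly 1 symbol. Isg15 had no probe set of its own and is not analysed here beyond its promoter. Iigp1 had 2 probe sets and each other gene had 1. The study used mice to investigate spinocerebellar ataxia type 6, a disease caused by an expanded CAG repeat in CACNA1A, the gene of a neuronal calcium channel subunit. The labels name homozygous MPI 118Q/118Q knock-in mice, Sca6 CtmKO/CtmKO mice and homozygous MPI 11Q/11Q knock-in mice, each set beside wild-type littermates of the same line. All mice were of strain C57BL/6, the tissue was cerebellum, and each of the 6 groups had 3 arrays of total RNA from separate samples. An age of 6 weeks is given for the 118Q and CtmKO mice only. The groups are called 118Q KI, 118Q WT, Ctm KO, Ctm WT, 11Q KI and 11Q WT below, and arrays carry the replicate number of the labels. One 11Q KI animal was already known to stand apart in these genes when the list was drawn up, so its values are given as a description.

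Interferons are secreted proteins that cells release on sensing foreign or misplaced nucleic acid. Type I interferons bind the Ifnar receptor, and through the kinases Jak1 and Tyk2 they activate a complex that contains Stat2 and Irf9 and binds the interferon-stimulated response element in the promoters of antiviral genes. Interferon gamma acts through its own receptor and the gamma-activated site. In brain, microglia, astrocytes, endothelial cells and neurons can all carry out this response, and a resting brain expresses most of these genes at a low level.

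The promoters are shown because a response element there is the sequence feature through which these genes are known to respond together. The RefSeq windows of assembly GRCm38.p6, from 250 bases before to 50 bases after each start site, were searched on both strands for the core of the response element, GAAANNGAAA, and for the gamma-activated site, TTCNNNGAA. Windows were found for 7 of the 9 genes, all except Usp18 and Iigp1. The response element core was present in 5 of these 7 windows, those of Ifit1, Ifit3, Isg15, Ifitm3 and Bst2, and in 3.44% of all 32851 windows. The 4 stretches below, from genes with a probe set of their own, are written 5′ to 3′ on the strand of the gene, with matches in capitals. A match to the opposite strand reads TTTC, and overlapping matches run together.
Ifit1: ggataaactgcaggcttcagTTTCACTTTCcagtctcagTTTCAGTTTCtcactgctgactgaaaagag
Ifit3: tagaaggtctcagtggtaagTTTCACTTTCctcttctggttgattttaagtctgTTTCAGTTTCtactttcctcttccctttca
Bst2: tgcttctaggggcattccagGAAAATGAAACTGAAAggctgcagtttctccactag
Ifitm3: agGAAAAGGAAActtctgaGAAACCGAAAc
The Ifit1 stretch lies at chr19:34640765-34640833 on the plus strand, with matches that begin 104 and 85 bases before the start. The Ifit3 stretch lies at chr19:34583353-34583436 on the plus strand, with matches that begin 156 and 122 bases before the start in the promoter table, which lies inside the gene interval of the RefSeq gene table. The first match has the same 10 letters in Ifit1 and Ifit3, and so does the second. The Bst2 stretch lies at chr8:71537567-71537622 on the minus strand and holds 2 overlapping matches. The Ifitm3 stretch lies at chr7:141010715-141010744 on the minus strand, with matches that begin at bases 3 and 20 of the gene. Isg15 had 3 overlapping matches, the first beginning 78 bases before its start. The windows of Irf7 and Oasl2 held no match to these letters. The gamma-activated site was present in the windows of Ifitm3 and Bst2, 2 of 7, and in 8.30% of all windows, and it overlapped the second response element match of Ifitm3 and the first of Bst2. Of 72 other genes of the pathway with a window, 24 held the response element core.

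The values are log2 signals per probe set, normalised by RMA, with no true zero, so differences between log2 levels are given. Over all probe sets, array medians lay between 2.38 and 2.55, with the lowest on 11Q KI array 1, and any pair of arrays correlated at 0.973 to 0.995 across probe sets. All 10 cerebellar marker genes were above the array median on all 18 arrays. The labels do not say how independent the replicates were beyond being separate samples, and p-values measure only the spread between these samples. In whole tissue, fewer cells of a type and less RNA per cell cannot be told apart.

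The first 4 genes to describe are Ifit1, Ifit3, Oasl2 and Usp18, which were all high on a single 11Q KI array. Ifit1 encodes a protein that binds foreign RNA and blocks its translation. By position in GRCm38.p6, Ifit1 spans chr19:34640889-34650009 and Ifit3 chr19:34583119-34588982. The Ifit1 level was 3.67, 1.69 and 1.73 on the 11Q KI arrays, against 2.02, 1.55 and 1.35 on the 11Q WT arrays. It was 2.26, 1.87 and 2.36 in 118Q KI, against 1.98, 1.19 and 2.65 in 118Q WT, and 1.91, 1.57 and 1.60 in Ctm KO, against 1.98, 1.51 and 1.96 in Ctm WT. The 11Q KI array 1 was the highest of 18, and apart from it the mutant and wild-type arrays of each line overlapped. Ifit3 encodes a partner protein of Ifit1. The Ifit3 level was 5.50, 2.93 and 3.16 on the 11Q KI arrays, against 2.97, 2.89 and 3.57 on the 11Q WT arrays. It was 3.97, 3.66 and 4.16 in 118Q KI, against 3.22, 3.76 and 4.60 in 118Q WT, and 3.15, 2.59 and 3.34 in Ctm KO, against 3.16, 2.83 and 3.54 in Ctm WT. Array 1 of 11Q KI was again the highest, and array 3 of 118Q WT came next in both Ifit genes. Oasl2 (chr5:114896926-114912245) belongs to the oligoadenylate synthetase family of antiviral proteins. The Oasl2 level was 3.49, 1.18 and 1.26 on the 11Q KI arrays, against 1.73, 1.08 and 1.33 on the 11Q WT arrays. The other 12 arrays lay between 1.01 and 1.87. The highest of the 18 levels was again that of 11Q KI array 1, and the next was 1.87 in Ctm WT. Usp18 (chr6:121245906-121270917) encodes the protease that removes Isg15 from proteins and dampens signalling from the type I receptor. The Usp18 level was 3.77, 1.49 and 1.66 on the 11Q KI arrays, against 1.63, 1.16 and 1.53 on the 11Q WT arrays. The other 12 arrays ranged from 1.42 to 2.10. In Ctm the 3 KO arrays, at 1.5, 1.48 and 1.42, all lay below the 3 WT arrays, at 1.87, 1.57 and 1.87.

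**Figure D1:**
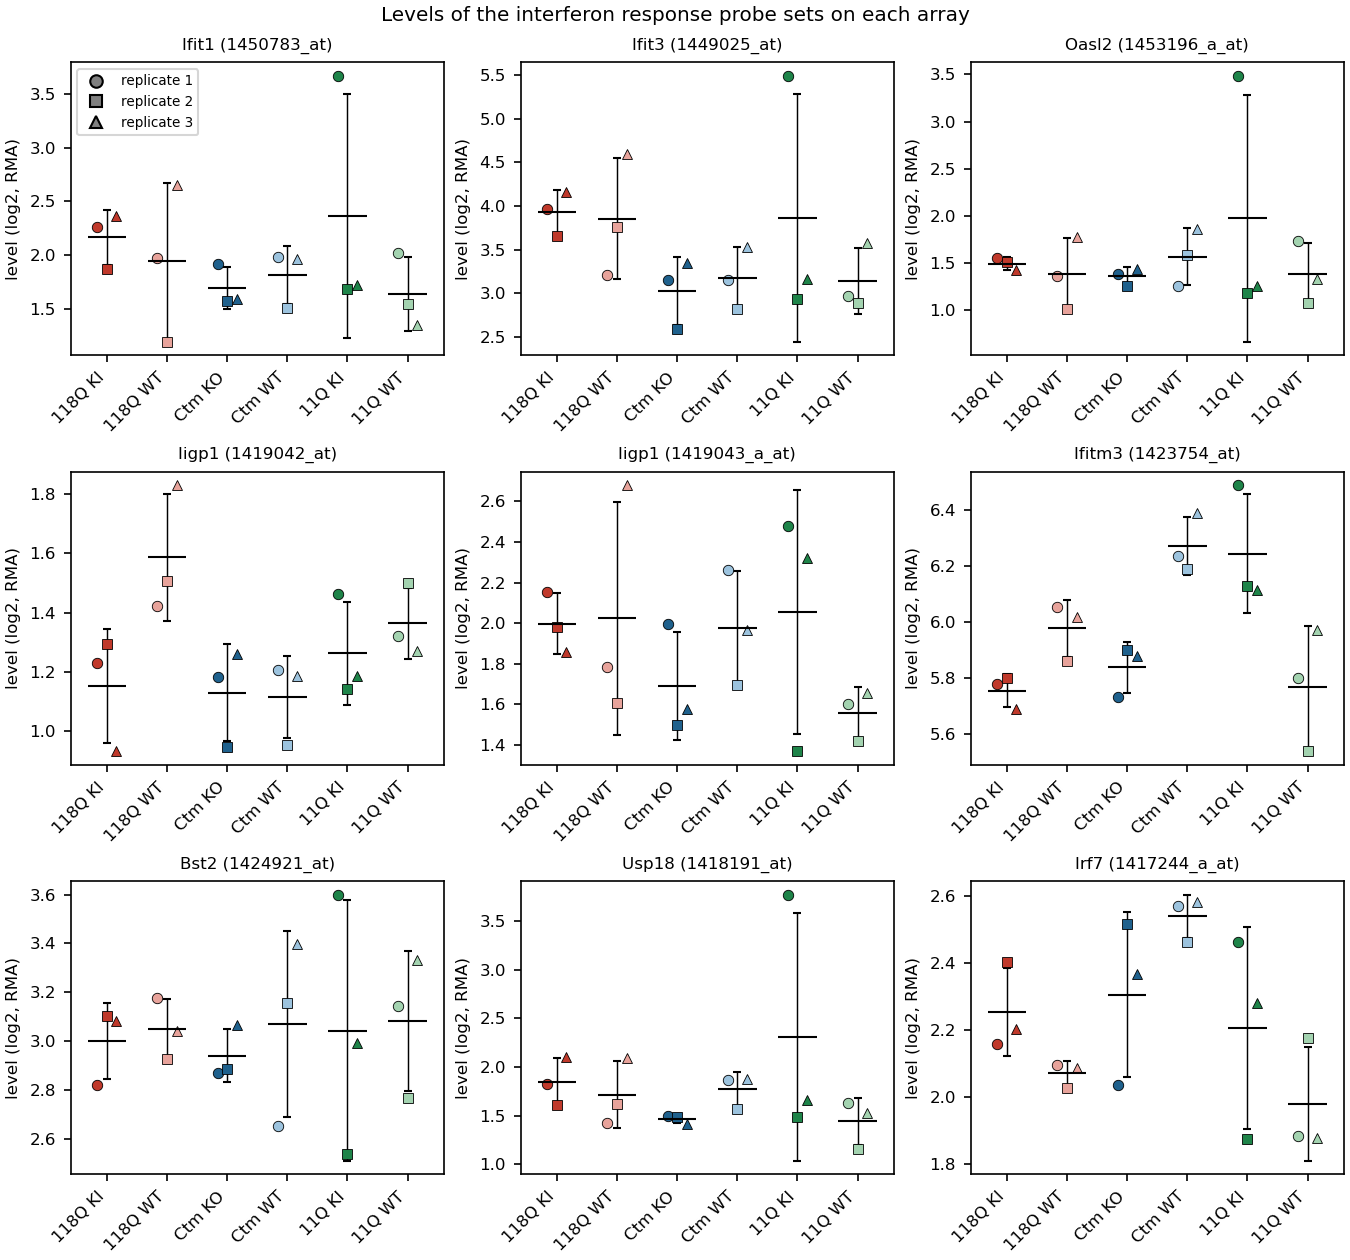
Log2 RMA level of each of the 9 probe sets (vertical axes, each with its own range) on each of the 18 arrays, by group. Symbols mark the replicate number, the long bar the group mean and the error bar 1 SD (n = 3). In the panels of Ifit1, Ifit3, Oasl2 and Usp18, 11Q KI array 1 (green circle) stands above the other 17 arrays, while the other 2 11Q KI arrays lie among the wild-type arrays.

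Set against the mean of the other 2 arrays of its own group, 11Q KI array 1 was higher by 1.96 in Ifit1, 2.45 in Ifit3, 2.27 in Oasl2 and 2.20 in Usp18 on the log2 scale. The array exceeded the mean of the other 17 by 1.84 in Ifit1, 2.11 in Ifit3, 2.07 in Oasl2 and 2.13 in Usp18 on the log2 scale. Among all 34945 probe sets ranked by that excess, Usp18 was number 2, Ifit3 number 3, Oasl2 number 5 and Ifit1 number 8. Usp18, Oasl2 and Ifit1 were at least 1 log2 unit above every other array, as were 7 probe sets in all, or 0.0200%. The other 4 belonged to Klrc3, Gpx3 and Igfbp4, the last with 2 probe sets. The array was the highest of 18 in 6 of the 9 interferon response probe sets, against 4.82% of all probe sets, the further 2 genes being Ifitm3 and Bst2. Ifit1, Usp18 and Oasl2 were dim elsewhere: on 17 of the 18 arrays each lay at or below the median of the 34945 probe sets on that array. Irf7 was at or below this median on all 18 arrays, Bst2 on 9, Ifit3 on 5 and Ifitm3 on 0.

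The remaining effector genes varied less between arrays. Ifitm3 (chr7:141009590-141010744) encodes a membrane protein that blocks the entry of viruses at the endosome. The Ifitm3 level was 6.49, 6.13 and 6.11 on the 11Q KI arrays, against 5.80, 5.54 and 5.97 on the 11Q WT arrays. It was 5.78, 5.80 and 5.69 in 118Q KI, against 6.05, 5.86 and 6.02 in 118Q WT, and 5.73, 5.90 and 5.88 in Ctm KO, against 6.23, 6.19 and 6.39 in Ctm WT. The 2 groups of each line did not overlap, with the mutant arrays higher in the 11Q line and lower in the 118Q and Ctm lines. The mean was 5.76 ± 0.059 in 118Q KI and 5.98 ± 0.10 in 118Q WT, 5.84 ± 0.091 in Ctm KO and 6.27 ± 0.10 in Ctm WT, and 6.24 ± 0.21 in 11Q KI and 5.77 ± 0.22 in 11Q WT (SD, n = 3 each). When the 6 groups are put in order of their means, neighbours overlapped, except that every 11Q KI array lay above every 118Q WT array. Bst2 (chr8:71534255-71537472) encodes tetherin, which holds budding virus particles at the cell surface. The Bst2 level was 3.60, 2.54 and 2.99 on the 11Q KI arrays, against 3.14, 2.77 and 3.33 on the 11Q WT arrays. The other 12 arrays lay between 2.66 and 3.40, and the groups overlapped in every line. Iigp1 encodes an interferon-inducible GTPase that acts on the vacuoles of intracellular parasites. Its probe set 1419043_a_at gave 2.48, 1.37 and 2.32 on the 11Q KI arrays, against 1.60, 1.42 and 1.66 on the 11Q WT arrays. In the 118Q line this probe set gave 2.16, 1.98 and 1.86 in KI, against 1.78, 1.61 and 2.68 in WT. Its other probe set, 1419042_at, gave 1.23, 1.29 and 0.93 in 118Q KI, against 1.42, 1.51 and 1.83 in 118Q WT, and here the groups did not overlap. Both Iigp1 probe sets were at or below the median of the 34945 probe sets on all 18 arrays, and their Pearson correlation across arrays was 0.37. Array 3 of 118Q WT was the highest in both, and 11Q KI array 1 ranked 4 in 1419042_at and 2 in 1419043_a_at. Irf7 (chr7:141263183-141266499) is the transcription factor that drives most type I interferon genes. The Irf7 level was 2.46, 1.87 and 2.28 on the 11Q KI arrays, against 1.88, 2.17 and 1.88 on the 11Q WT arrays. It was 2.16, 2.40 and 2.20 in 118Q KI, against 2.10, 2.03 and 2.09 in 118Q WT, and 2.04, 2.52 and 2.37 in Ctm KO, against 2.57, 2.46 and 2.58 in Ctm WT. The 118Q KI arrays all lay above the 118Q WT arrays, and the other lines overlapped.

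The 118Q comparison asked whether these genes differed between 118Q KI mice and their littermates. None of the 9 probe sets passed an adjusted p of 0.05 in limma, against 0.558% of all probe sets, and 1 of 9 had an unadjusted p under 0.05, against 14.1%. That 1 was the Iigp1 probe set 1419042_at, with a difference of -0.43 (SE 0.14, limma adjusted p = 0.146). Ifitm3 differed by -0.22 (SE 0.12, limma adjusted p = 0.450), and the other 7 lay between -0.05 for Bst2 and 0.22 for Ifit1. The KI and WT arrays did not overlap in 3 of the 9, with Irf7 higher and Ifitm3 and this Iigp1 probe set lower, against 10.4% of all probe sets that were higher, 5.88% that were lower and 16.3% in either direction. The median difference of the 9 was 0.07, beside 0.034 over all probe sets. The 95% intervals were wide for Ifit3, from -0.93 to 1.08, and for Ifit1, from -0.63 to 1.08. Their SE is estimated over the arrays of all lines, so the width is not the spread among the 118Q arrays alone. Without 11Q KI array 1 the SE fell from 0.48 to 0.29 for Ifit3 and from 0.40 to 0.27 for Ifit1. It fell from 0.40 to 0.19 for Oasl2 and from 0.38 to 0.17 for Usp18. The 118Q differences were unchanged, and 0 of 9 passed in that fit.

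In the Ctm line 0 of 9 probe sets passed, against 0.916% of all probe sets, and 1 of 9 had an unadjusted p under 0.05 in limma, against 11.0%. That was Ifitm3, at 5.84 ± 0.091 in Ctm KO and 6.27 ± 0.10 in Ctm WT (SD, n = 3 each), a difference of -0.43 (SE 0.12, limma adjusted p = 0.125). Usp18 differed by -0.30 (SE 0.38, limma adjusted p = 0.847) although its groups did not overlap. The SE is estimated over all 18 arrays, and without 11Q KI array 1 it was 0.17 and the limma adjusted p was 0.539. The differences were below 0 in 8 of the 9, with a median of -0.21, beside -0.041 over all probe sets, of which 40.1% were above 0. Groups did not overlap in 2 of 9, Usp18 and Ifitm3, both lower, against 12.4% of all probe sets that were lower, 7.01% that were higher and 19.4% in either direction.

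In the 11Q line 0 of 9 probe sets passed, as did 0 of all 34945 probe sets (0%), and 2 of 9 had an unadjusted p under 0.05 in limma, against 5.24%. Those were Ifitm3, at 6.24 ± 0.21 in 11Q KI and 5.77 ± 0.22 in 11Q WT (SD, n = 3 each), with a difference of 0.47 (SE 0.12, limma adjusted p = 0.887), and Usp18. Usp18 averaged 2.31 ± 1.27 in 11Q KI and 1.44 ± 0.25 in 11Q WT, a difference of 0.87 (SE 0.38, limma adjusted p = 0.909). Ifit1 and Ifit3 each differed by 0.72, and Oasl2 by 0.60, with SEs of 0.40, 0.48 and 0.40 and a limma adjusted p of 0.909 for each. These values rest on 1 array. Without 11Q KI array 1 the differences were 0.07 for Ifit1, -0.10 for Ifit3, 0.13 for Usp18 and -0.16 for Oasl2. Ifitm3 still differed by 0.35 without it (SE 0.13, limma adjusted p = 0.991), and Bst2 by -0.32, against -0.04 with all arrays. Only Ifitm3 had groups that did not overlap, higher in 11Q KI, against 4.28% of all probe sets that were higher, 5.61% that were lower and 9.88% in either direction. The median difference of the 9 was 0.50, beside -0.011 over all probe sets, and it was 0.07 without 11Q KI array 1.

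**Figure D2:**
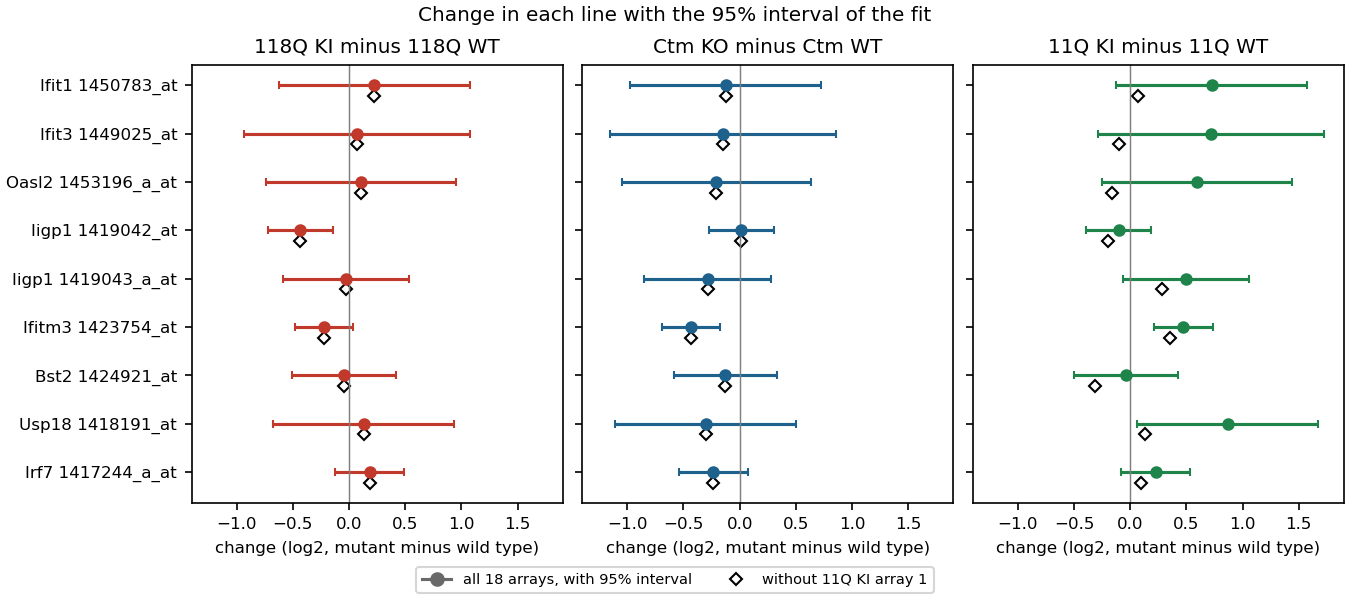
Log2 difference of each probe set, mutant minus wild-type littermates, in the 118Q, Ctm and 11Q lines (panels), with the 95% interval of the limma fit over all 18 arrays. Open diamonds give the same difference without 11Q KI array 1, and in the 11Q panel those of Ifit1, Ifit3, Oasl2 and Usp18 lie between -0.16 and 0.13, while that of Ifitm3 stays at 0.35.

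The differences between lines were tested as the 11Q difference minus the 118Q or Ctm difference, and as the 118Q minus the Ctm difference. None of the 9 probe sets passed in any of these limma tests, against 0% of all probe sets for 11Q minus 118Q, 0% for 11Q minus Ctm and 1.63% for 118Q minus Ctm. At an unadjusted p under 0.05 the counts were 1, 3 and 1 of 9, against 8.98%, 7.91% and 16.5% of all probe sets. Ifitm3 had the lowest p in the first 2. The Ifitm3 difference was 0.70 larger in the 11Q than in the 118Q line (SE 0.18, limma adjusted p = 0.305) and 0.91 larger in the 11Q than in the Ctm line (SE 0.18, limma adjusted p = 0.169). Without Ctm WT array 1 the second value was 0.92 and passed (limma adjusted p = 0.0164), and without 11Q KI array 1 it was 0.78 (limma adjusted p = 0.335). Usp18 and Irf7 were the other 2 with an unadjusted p under 0.05 for 11Q minus Ctm, at 1.17 (SE 0.54, limma adjusted p = 0.613) and 0.46 (SE 0.21, limma adjusted p = 0.587). Without 11Q KI array 1 these values were 0.44 for Usp18 (SE 0.25, limma adjusted p = 0.758) and 0.33 for Irf7 (SE 0.20, limma adjusted p = 0.772).

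The 3 wild-type groups are all C57BL/6 littermates, and they were compared with each other by an F test in limma. Of the 9 probe sets, 2 passed, Irf7 (limma adjusted p = 0.0312) and Ifitm3 (limma adjusted p = 0.0346), against 10.6% of all probe sets. The Irf7 signal was dim, at or below the median of the 34945 probe sets on all 18 arrays. Irf7 averaged 2.07 ± 0.038 in 118Q WT, 2.54 ± 0.065 in Ctm WT and 1.98 ± 0.17 in 11Q WT (SD, n = 3 each), and each Ctm WT array lay above all 118Q WT and 11Q WT arrays. Ifitm3 was also highest in Ctm WT on each of its 3 arrays. Neither call held without any 1 of the 3 Ctm WT arrays or without 11Q WT array 1, and 1 of 9 was called without 11Q WT array 2 or array 3.

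The rest of the pathway was described from lists by role, 91 other genes with 166 probe sets. In limma 0 of 166 rose and 0 fell in each of the 3 lines. At an unadjusted p under 0.05 there were 13 of 166 in the 118Q line, 16 in the Ctm line and 7 in the 11Q line, against 14.1%, 11.0% and 5.24% of all probe sets. Differences were above 0 for 84, 61 and 107 of the 166 in the 118Q, Ctm and 11Q lines, against 57.4%, 40.1% and 47.3% of all probe sets. The median difference of the 166 was 0.0058 in the 118Q line, -0.048 in the Ctm line and 0.068 in the 11Q line.

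Among the ligands, Ifnb1, the founding type I interferon, had levels of 1.04, 1.43 and 1.04 in 118Q KI, against 0.77, 1.26 and 1.01 in 118Q WT, and 0.90, 0.90 and 0.86 in 11Q KI, against 0.79, 0.90 and 0.96 in 11Q WT. Ifna1 was at 2.39, 1.78 and 1.78 in 11Q KI, against 1.91, 1.95 and 1.5 in 11Q WT, and 11Q KI array 1 was the highest of 18 for it. None of the 5 ligand probe sets had an unadjusted p under 0.05 in any line. Of the 8 receptor probe sets, 4 had one in the Ctm line, against 11.0% of all probe sets. Ifngr1, the ligand-binding chain of the interferon gamma receptor, was at 4.12, 4.21 and 4.29 in Ctm KO, against 4.63, 4.57 and 4.67 in Ctm WT, a difference of -0.42 (SE 0.15, limma adjusted p = 0.270). Ifngr2, its signalling chain, differed by -0.42 (SE 0.16, limma adjusted p = 0.307) by its brighter probe set. The brightest Ifnar2 probe set, 1451462_a_at, which detects a chain of the type I receptor, differed by -0.35 (SE 0.14, limma adjusted p = 0.302). All 3 Ctm KO arrays lay below all Ctm WT arrays in these probe sets of the 3 genes, as in 12.4% of all probe sets.

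The lowest limma adjusted p of the pathway in the 118Q line belonged to Stat2, the transcription factor of the type I response. The Stat2 level by its brighter probe set was 4.32, 4.24 and 4.21 in 118Q KI, against 3.89, 3.63 and 3.58 in 118Q WT, a difference of 0.55 (SE 0.16, limma adjusted p = 0.116). Every 118Q KI array was above every 118Q WT array, as in 10.4% of all probe sets, and the second Stat2 probe set gave 0.57 (SE 0.20, limma adjusted p = 0.183). Jak2, a kinase of the interferon gamma receptor, differed by 0.33 (SE 0.13, limma adjusted p = 0.252) by its dimmer probe set and by 0.12 (SE 0.12) by its brighter one in the 118Q line. Among sensors and regulatory factors, Ifih1, which senses double-stranded RNA, differed by -0.60 in the 118Q line (SE 0.23, limma adjusted p = 0.236). Mavs, the adaptor Ifih1 signals through, differed by -0.27 in the Ctm line (SE 0.12, limma adjusted p = 0.371). Ddx58, also on the sensor list, differed by 0.32 in the 118Q line by a dimmer probe set (SE 0.12, limma adjusted p = 0.199). Its brightest probe set gave -0.14 (SE 0.12) and its other dimmer one 0.14 (SE 0.15). Irf1, a transcription factor of the interferon gamma response, differed by -0.28 in the Ctm line (SE 0.14, limma adjusted p = 0.468). Of the 10 regulatory factor probe sets, 1 had an unadjusted p under 0.05 in the 118Q line, against 14.1% of all probe sets. The lowest limma adjusted p of these 10 there was 0.203. In the Ctm line the lowest limma adjusted p was that of Ifitm2, a relative of Ifitm3. Ifitm2 was at 4.17, 3.93 and 4.33 in Ctm KO, against 4.94, 4.54 and 4.64 in Ctm WT, a difference of -0.56 (SE 0.16, limma adjusted p = 0.118), and in the 11Q line it differed by -0.02 (SE 0.16). Psmb10, an immunoproteasome subunit, differed by 0.31 in the 118Q line (SE 0.12, limma adjusted p = 0.227) and by -0.35 in the Ctm line (SE 0.12, limma adjusted p = 0.205).

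On 11Q KI array 1, 35 of the 166 pathway probe sets, or 21.1%, had their highest level of the 18 arrays, beside the 4.82% of all probe sets. The lists were chosen with earlier results of these data known, so these shares are a description and no test. By role these were 22 of 73 among other interferon-stimulated genes, 9 of 26 among interferon gamma-inducible GTPases and chemokines, 2 of 20 in signalling, 1 of 10 regulatory factors, 1 of 5 ligands, 0 of 8 receptors and 0 of 25 sensors and adaptors. The Ifih1 probe set counts under sensors and under other interferon-stimulated genes. The genes with the largest excess over the mean of the other 17 arrays were Gbp6, a guanylate-binding protein, at 2.00, Lgals3bp at 1.43, Rtp4 at 1.33, Irgm2, an immunity-related GTPase, at 1.20 and Xaf1 at 1.01. Gbp6 was at 4.87 on this array, against 2.38 to 3.89 on the other 17. A dimmer probe set of the same gene gave 1.22 for Gbp6, 0.16 for Rtp4 and -0.014 for Xaf1. In the other direction, 11Q KI array 1 was the lowest of 18 for the interferon-stimulated genes Ifitm2, Oas3 and Oasl1. These lay at -0.56, -0.47 and -0.44 from the mean of the other 17. The array was also the lowest of 18 for Myd88, both Tlr3 probe sets and every dimmer probe set of Tlr7 and Ifnar2. The same held for a dimmer probe set of each of Jak1, Ifngr2 and Cxcl9. How many of all probe sets were lowest on this array was not counted. Gbp7, another guanylate-binding protein, was by its brighter probe set at 3.09, 2.46 and 2.67 in 11Q KI, against 2.23, 2.27 and 2.28 in 11Q WT (difference 0.48, SE 0.14, limma adjusted p = 0.909). Tap1, a subunit of the peptide transporter of antigen presentation, was by its brightest probe set at 2.74, 2.65 and 2.94 in 11Q KI, against 2.43, 2.38 and 2.13 in 11Q WT (difference 0.46, SE 0.14, limma adjusted p = 0.909). In these probe sets of Gbp7 and Tap1 all 3 KI arrays were above all 3 WT arrays, as in 4.28% of all probe sets. The second Gbp7 probe set differed by 0.17 and the other 3 of Tap1 by 0.06, -0.17 and 0.0033, and in each of these the KI and WT arrays overlapped.

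**Figure D3:**
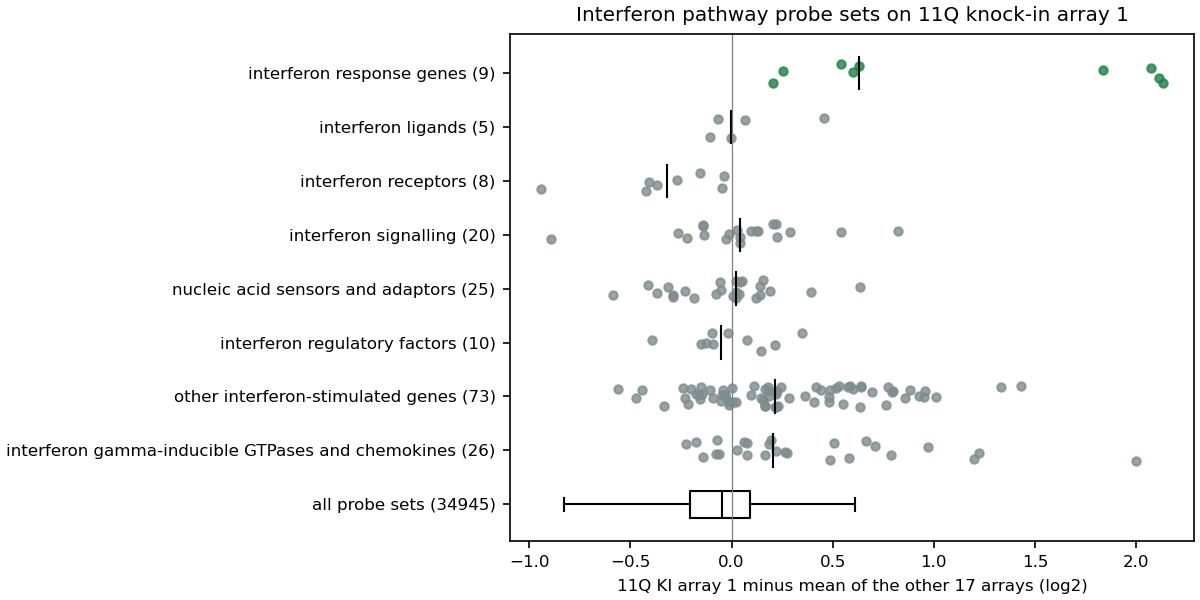
Log2 level on 11Q KI array 1 minus the mean of the other 17 arrays, one point per probe set, for the interferon response genes and for other pathway genes by role, with the number of probe sets in brackets and a bar at the median. The box at the bottom spans the 25th to 75th percentile of all 34945 probe sets and its whiskers the 1st to 99th percentile. Ifit1, Ifit3, Oasl2 and Usp18 are the points between 1.84 and 2.13, and Gbp6 is the point at 2.00 in the GTPase row.

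The 6 pairs among Ifit1, Ifit3, Usp18 and Oasl2 had Pearson correlations of 0.74 to 0.91 across the 18 arrays and of 0.36 to 0.73 across the 17 without 11Q KI array 1, and each of the 6 was larger with it. Over all 36 pairs of the 9 probe sets the range was -0.31 to 0.91 with it and -0.38 to 0.73 without it. Averaged over the 8 genes as a deviation from the 18-array mean, 11Q KI array 1 was at 1.20 and the next was 118Q WT array 3 at 0.39. The other 2 11Q KI arrays were at -0.33 and -0.04, and the 11Q WT arrays were at -0.13, -0.41 and -0.15. Array 3 of 118Q WT was the highest of 18 in 2 of the 9 probe sets, both of Iigp1, against 5.92% of all probe sets.

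The 10 genes whose pattern over the 18 arrays was most like that average, among 18185 other genes, were Gbp6, Igtp, Rasef, Rtp4, 5033403F01Rik, 4930447K03Rik, Xaf1, Fabp1, 4921508D12Rik and Lyzl6, with Pearson correlations of 0.857 for Gbp6 to 0.787 for Lyzl6. Gbp6, Igtp, Rtp4 and Xaf1 are on the pathway lists. Without 11Q KI array 1 the correlation was 0.554 for Gbp6, 0.481 for Igtp, 0.588 for Rtp4 and 0.630 for Xaf1. Among the 18185 genes these then ranked 444, 1027, 276 and 125. For the genes on no pathway list it was 0.425 for 5033403F01Rik, 0.378 for Fabp1 and 0.321 for 4930447K03Rik. It was 0.229 for 4921508D12Rik, 0.145 for Lyzl6 and 0.135 for Rasef. These correlations share 1 outlying array and are given as a description.

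Cell type markers were read on the same arrays, since blood and non-neuronal cells also express these genes, and their part in the results above was not tested. On 11Q KI array 1 the mean of 12 microglial markers deviated from the 18-array mean by 0.0014. It was the highest of the 11Q line, where KI ran from -0.32 to 0.0014 and WT from -0.27 to -0.059. The mean of 9 endothelial markers was at -0.070, the lowest of that line. There 11Q KI ran from -0.070 to 0.22 and 11Q WT from 0.090 to 0.17. The mean of 8 leukocyte markers was at -0.16, within a range of -0.16 to 0.13 in 11Q KI and -0.31 to -0.099 in 11Q WT. The 3 red blood cell markers were at 0.45, the highest of 18 arrays, with a range of 0.088 to 0.45 in 11Q KI and -0.16 to 0.22 in 11Q WT. Both lists were dim: the mean level on this array was 2.26 for red blood cell and 1.51 for leukocyte markers. The median of all probe sets on it was 2.38. The 7 choroid plexus markers were at -1.89, with 11Q KI between -2.48 and 0.75 and 11Q WT between 0.98 and 1.37. In the 118Q line microglial markers ran from 0.34 to 0.66 in KI and from -0.17 to 0.14 in WT, with 2 of 12 called higher and 0 lower. Endothelial markers ran from -0.60 to -0.11 in 118Q KI and from -0.067 to 0.20 in 118Q WT, with 1 of 9 called lower. Leukocyte markers ran from 0.23 to 0.45 in 118Q KI and from -0.090 to 0.23 in 118Q WT, and 7 markers of meninges and fibroblasts from -0.044 to 0.092 in 118Q KI and from 0.11 to 0.40 in 118Q WT, with none called. In the Ctm line microglial markers ran from -0.19 to -0.10 in KO and from -0.034 to 0.076 in WT, and endothelial markers from -0.11 to 0.062 in KO and from 0.040 to 0.21 in WT, with none called. Markers of meninges and fibroblasts ran from -0.46 to -0.25 in Ctm KO and from -0.16 to 0.16 in Ctm WT, those of reactive astrocytes (6 genes) from -0.086 to 0.088 in KO and from 0.15 to 0.24 in WT, and those of choroid plexus from -2.32 to 1.24 in KO and from -1.65 to 1.43 in WT, again with none called. The KO and WT arrays did not overlap for the microglial, meningeal and astrocyte lists in the Ctm line, in which Ifitm3, Usp18 and the brightest probe sets of Ifngr1, Ifngr2 and Ifnar2 were lower without overlap. Mutant and wild-type arrays also did not overlap for the microglial, endothelial, leukocyte and meningeal lists in the 118Q line, and for choroid plexus in the 11Q line. How often such list means fail to overlap was not tested. The RNA quality measure, the mean difference between 3-prime and 5-prime control probe sets of Gapdh and beta-actin, was 0.45 ± 0.030 in 118Q KI and 0.55 ± 0.060 in 118Q WT (SD, n = 3 each, exact permutation test, two-sided, p = 0.10, the smallest this design allows, 0.30 adjusted over 3 lines). In Ctm it was 0.62 ± 0.083 in KO and 0.61 ± 0.058 in WT (exact p = 0.90), and in the 11Q line 0.67 ± 0.065 in KI and 0.64 ± 0.12 in WT (exact p = 0.70).

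**Figure D4:**
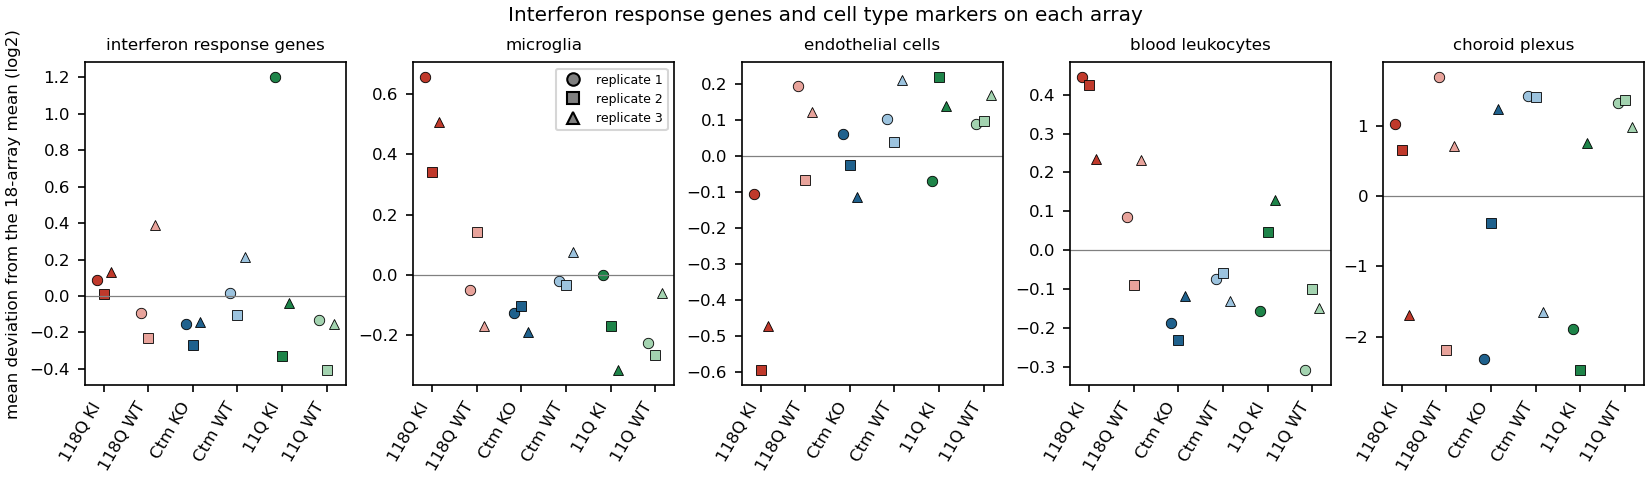
Mean deviation from the 18-array mean (log2) of the 8 interferon response genes and of 4 marker lists on each array, by group, with symbols for the replicate number and an axis range of its own in each panel. The 11Q KI array 1 (green circle) is at 1.20 in the first panel and at -0.16 for leukocyte markers. For microglial markers it is at 0.0014, the highest of the 11Q line, and the 118Q KI arrays are the 3 highest in that panel.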

How the data were processed

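RNA from 18 mouse cerebella was hybridised to Affymetrix arrays, 1 per sample. The deposited values are log2 signals per probe set, normalised by the authors with RMA (version not given), per the submitters' processing notes. A natural log would put the highest value, 12.2, at an intensity of 191530, above the 65535 that 16 bits can hold. Of 45101 probe sets, 64 controls and 10092 with several gene symbols or none stayed out of the tests. No filter on dim probe sets was applied. Gene names come from the platform annotation, and promoters from RefSeq GRCm38.p6. With limma 3.58.1 in R 4.3.3, group means were fitted over all 18 arrays (12 residual and 5.88 prior degrees of freedom), and two-sided tests were adjusted by Benjamini-Hochberg over 34945 probe sets at 0.05. The fit was tested on simulated data with independent normal noise of equal spread on every array, which does not cover an outlying array. The number of arrays limits precision. Alternatives covered 1 probe set per gene, their mean, a filter, eBayes settings, array weights, renormalisation, RNA quality, a block, fewer arrays, a fold rule and leaving out each array. Background correction was not varied.

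The interferon response genes and the lists were chosen with earlier results of these data known. Text names every listed gene, up to 4 genes per pathway list with the smallest unadjusted p in any line, called genes, and the 10 genes most like the average pattern. Klrc3, Gpx3, Igfbp4, Oas3, Oasl1 and the genes with the largest excess on 11Q KI array 1 were named after their values were seen.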

Additional observations from a re-analysis of the deposited data

Results flagged for a closer look

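The Ifitm3 difference between mutant and wild-type littermates ran in opposite directions in different lines, with 0.47 in the 11Q line, -0.22 in the 118Q line and -0.43 in the Ctm line. The 11Q difference minus the 118Q difference was 0.70 (SE 0.18, limma adjusted p = 0.305). The 11Q difference minus the Ctm difference was 0.91 (SE 0.18, limma adjusted p = 0.169). Both were picked out because every mutant array of one line lay above its wild-type arrays while every mutant array of the other lay below. Neither passed after adjustment over all probe sets.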

How the results depend on the processing

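Over 835 refits of single interferon response probe sets, 807 kept their direction and their side of the threshold, 24 turned their sign and 4 passed the threshold newly. Leaving out an array of another line could not alter a difference within a line, only its SE, so many of these directions were fixed in advance. Differences between lines were refitted in this way only for Ifitm3 and, for 11Q minus Ctm, also for Usp18 and Irf7. With array weights, Iigp1 1419042_at in the 118Q line (-0.50, adjusted p = 0.0313), Ifitm3 in the Ctm line (-0.42, adjusted p = 0.0437) and Ifitm3 for 11Q minus Ctm (0.88, adjusted p = 0.0311) passed in limma, so that 1 of 9 was called in each. The wild-type F test called 1 of the 3 probe sets that remained with the dimmer 50% left out, 1 of 9 with only the wild-type arrays, and 0 to 2 with 1 array left out. With 1 array left out, 11Q minus Ctm called 0 to 1 of 9 and the other comparisons between groups 0. Apart from the fits that left out an array, signs turned for Iigp1 1419043_a_at in the 118Q line (0.098 with array weights, 0.068 with the RNA quality covariate), Bst2 in the 118Q line (0.046 with array weights) and Bst2 in the 11Q line (0.0038 after renormalisation, 0.0043 with the covariate). In the 11Q line Ifit3 and Oasl2 turned below 0 without 11Q KI array 1. With 1 array left out the 118Q differences ranged from -0.15 to 0.58 for Ifit1, -0.25 to 0.44 for Ifit3, -0.011 to 0.32 for Usp18, -0.23 to 0.30 for Iigp1 1419043_a_at, -0.080 to 0.30 for Oasl2 and -0.11 to 0.043 for Bst2. Those of Ctm ranged from -0.32 to 0.074 for Ifit3, -0.065 to 0.11 for Iigp1 1419042_at and -0.34 to 0.036 for Bst2. Those of 11Q ranged from -0.097 to 1.19 for Ifit3, -0.16 to 0.99 for Oasl2 and -0.32 to 0.21 for Bst2. The labels do not say whether replicate numbers pair the arrays, and these few correlations cannot decide it. Same-numbered deviations correlated at -0.09 to 0.01 in the 118Q, -0.10 to 0.22 in the Ctm and -0.12 to 0.16 in the 11Q line. Those with different numbers correlated at -0.17 to 0.23, -0.23 to 0.17 and -0.17 to 0.11 in the same order. With the replicate numbers as a block, 0 of 9 were called in each comparison.

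Counts over all probe sets, the background of the report, moved more. The 195 called in the 118Q line became 491 without the dimmer 50%, 412 with trended robust eBayes, 1681 with array weights, 299 after renormalisation, 1 with the RNA quality covariate, 77 with the replicate block and 0 with only the arrays compared. Leaving out 1 array gave 1 to 1078: 1078, 5 and 2 without 118Q KI array 1, 2 and 3, 5 and 1 without 118Q WT array 1 and 3. The 320 in the Ctm line became 169 with 1 probe set per gene, 176 with their mean, 492 without the dimmer 50%, 1028 with array weights and 2 with only the arrays compared, and 4 to 796 with 1 array left out: 4, 6 and 61 without Ctm KO array 1, 2 and 3, 796, 176 and 9 without Ctm WT array 1, 2 and 3. The 0 in the 11Q line became 3 with trended robust eBayes, 5 with array weights, 1 with the replicate block and 4 with only the arrays compared, and 0 to 8 with 1 array left out. For 11Q minus 118Q, 0 became 5 with array weights, and 0 to 89 with 1 array left out, 89 without 118Q KI array 1. For 11Q minus Ctm, 0 became 1 with the mean of probe sets, 153 with array weights and 2 with only the arrays compared, and 0 to 489 with 1 array left out, 489 without Ctm WT array 1. For 118Q minus Ctm, 570 became 1239 without the dimmer 50%, 2205 with array weights, 3 with the RNA quality covariate, 281 with the replicate block and 0 with only the arrays compared, and 3 to 1248 with 1 array left out, 3 without Ctm KO array 1 or 2 and 1248 without 118Q KI array 1. The 3713 of the F test became 1779 with 1 probe set per gene, 1487 with their mean and 1553 with only the wild-type arrays, and 1654 to 3834 with 1 array left out, 1654 without Ctm WT array 3. The causes were not tested. The F test was not run with the block or the fold rule, and Iigp1 has no single value per probe set where its probe sets are merged. The number of arrays, and signals near the bottom of the scale, limit what can be detected.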
